A study of Homo sapiens with 12 samples.

Results

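The ligands of the epidermal growth factor (EGF) family and the ERBB receptors they bind were followed in HuH-7 cells under SLMP53-2. The set holds 10 genes, namely the ligand genes AREG, EREG, BTC, TGFA, HBEGF and EGF, the receptor genes EGFR, ERBB2 and ERBB3, and ERRFI1, which codes for a cytoplasmic inhibitor of the receptors. Its members are all gene probes of the array that carry one of these names, 18 of 41000 probes. HuH-7 is a line derived from a hepatocellular carcinoma, and per the labels it carries the p53 mutation Y220C, which is shared by every sample including the controls. SLMP53-2 is a small molecule that the series describes as a reactivator of mutant p53. Cells received DMSO, the solvent control, or SLMP53-2 at 28 µM or 42 µM, given in the labels as 2 and 3 times its IC50, and total RNA was taken after 24 h. The 4 arrays of the higher dose are labelled 42 µM in their titles and 48 µM in their characteristics. They are called 42 µM here. Each group has 4 biological replicates, 1 array each, so 12 arrays in all, which lie on 5 slides. All of them come from a single cell line, and no p53-null or p53 wild-type cells were among these arrays.

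EGF-family ligands are made as precursors anchored in the plasma membrane and are set free by metalloproteases such as ADAM17. A bound ligand joins receptors into dimers that phosphorylate each other and feed the RAS-MAPK and PI3K-AKT cascades. AREG, TGFA and EGF bind EGFR, whereas BTC, HBEGF and EREG bind both EGFR and ERBB4. ERBB2 has no known ligand and serves as a partner of the others, and ERBB3 is a receptor with weak kinase activity that couples to PI3K. In the liver, EGFR is abundant on hepatocytes, and its ligands are known for their part in regeneration after injury.

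Of the 250 bases that precede the transcription start, those of AREG, BTC and EREG are shown, as AREG and BTC are the members called at 42 µM and EREG is a ligand gene near them on chromosome 4. The sequences come from RefSeq (GRCh38.p14), and run 5′ to 3′ on the strand of the gene, which is plus for AREG (chr4:74444886-74445135) and EREG (chr4:74364895-74365144) and minus for BTC (chr4:74794524-74794773). Capitals mark a cyclic AMP response element (CRE, TGACGTCA), its core TGACG, or a TATA box (TATAAA).
AREG: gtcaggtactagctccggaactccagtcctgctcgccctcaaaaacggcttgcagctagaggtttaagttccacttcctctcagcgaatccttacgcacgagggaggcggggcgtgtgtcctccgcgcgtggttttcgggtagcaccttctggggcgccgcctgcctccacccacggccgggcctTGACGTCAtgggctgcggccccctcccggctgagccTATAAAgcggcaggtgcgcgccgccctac
BTC: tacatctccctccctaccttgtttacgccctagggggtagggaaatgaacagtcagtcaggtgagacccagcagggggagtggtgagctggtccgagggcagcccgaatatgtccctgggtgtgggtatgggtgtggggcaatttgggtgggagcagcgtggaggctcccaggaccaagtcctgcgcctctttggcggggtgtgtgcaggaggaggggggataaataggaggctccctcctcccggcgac
EREG: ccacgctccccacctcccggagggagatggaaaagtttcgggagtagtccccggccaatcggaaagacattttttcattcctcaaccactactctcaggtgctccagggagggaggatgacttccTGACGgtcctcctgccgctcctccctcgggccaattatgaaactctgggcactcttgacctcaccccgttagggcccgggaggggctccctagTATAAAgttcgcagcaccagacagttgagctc

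The CRE of AREG begins 65 bases before the start and reads the same on both strands. Across 35116 RefSeq promoter entries of this length, 1.65% hold a TGACGTCA on either strand. The core, which also lies within each full CRE, is far more common, with 21.2% of entries, and EREG has a single one that begins 125 bases before its start. TATAAA begins 29 bases before the start in AREG and 32 bases before it in EREG, and 3763 of the 35116 entries hold it. In the BTC window none of the motifs searched was found. Among the 9 members with an entry (11 entries), an AP-1 site (TGANTCA, 6.57% of all entries) was present in EGF, ERBB2 and one entry of EGFR. Neither the C/EBP-ATF composite TGATGNAAN (3.13% of all entries) nor a p53 decamer, one arm of the p53 response element (5.57%), occurred in any of the 11. Such matches describe letters in a window and do not show that a factor binds there.

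Values below are log2 intensities after background correction and quantile normalization, and a difference of 1 is a 2-fold change. They cannot be set against each other between probes, because probes differ in how brightly they report a given amount of RNA. A probe counts as detected on an array when the scanner software marked it as well above background, and it was tested when detected on at least 2 of the 4 arrays of some group. By this rule 15 of the 18 probes were tested, along with 33467 of the 41000 in all. A probe was called when its limma p-value, adjusted by Benjamini-Hochberg over all probes tested, was below 0.05 and its log2 fold change at least 0.6 in size. Between 65.0% and 85.0% of gene spots were well above background per array. Over all tested probes, the root mean square difference from the DMSO mean was 0.26 to 0.34 for DMSO arrays, each set against the other DMSO arrays. For the 28 µM arrays it was 0.47, 0.42, 0.32 and 0.30 in replicates 1 to 4, and for the 42 µM arrays it lay between 0.31 and 0.43. The fourth 28 µM array was thus as close to DMSO as DMSO arrays were to each other, as were 28 µM replicate 3 and 42 µM replicate 4. Since the fourth array also stood apart from its group in AREG and BTC, results at 28 µM are given with and without it. As for the cell type, all 10 hepatocyte-lineage markers were tested and none was called at either dose, with ALB, the serum albumin gene, at 16.1 in DMSO and 16.1 at 42 µM. The leukocyte gene PTPRC was not well above background on any of the 12 arrays.

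At 42 µM, RNA of AREG and BTC was higher than in DMSO, by 5.52-fold and 2.18-fold, while none of the receptor probes, HBEGF, EREG or EGF passed the test. Thus 2 of the 15 tested probes were called higher and 0 lower, against 1.41% and 1.23% of all tested probes. At 28 µM, 0 of the 15 were called, as was true of 0% of all probes, and the smallest adjusted p of any probe was 0.115. At an unadjusted p below 0.05 with the same fold limit, the same genes, AREG and BTC, passed at 28 µM as higher (1.36% of all probes), and none passed as lower (1.02%). Without the fourth 28 µM array, both were called higher at 28 µM as well, against 1.31% of all probes, and none lower, against 0.84%. That array was singled out by its AREG and BTC values, so these calls are given as a description, and leaving out any other single array gave 0 calls of the 15 at 28 µM. Between the doses, 0 of 15 were called, as were 0% of all probes, and 0 of 15 passed at the unadjusted p and fold limit (0.117% higher and 0.167% lower over all probes). The median log2 fold change of the 15 probes was 0.15 at 28 µM and 0.21 at 42 µM, compared with -0.01 and -0.01 over all probes. Both doses were compared with the same 4 DMSO arrays, so their results are not independent. In lysates of whole cultures, more RNA per cell and a larger share of cells making it cannot be told apart.

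**Figure D1:**
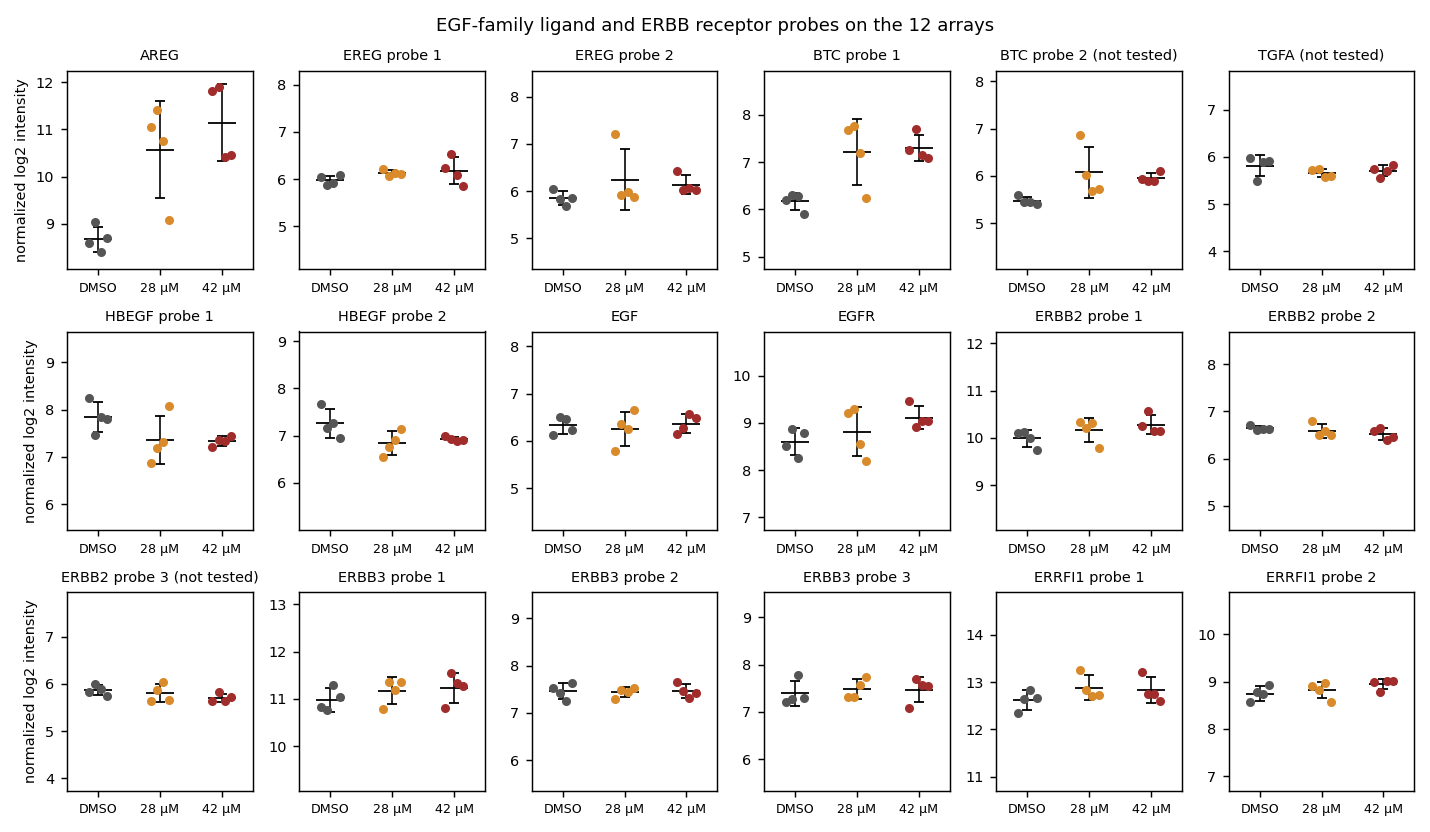
Normalized log2 intensity of the 18 probes on each of the 12 arrays, where points are single arrays (replicates 1 to 4 from left to right), the horizontal line is the group mean and the bars are its SD. Each panel has its own position on the vertical axis but spans the same range, and AREG and BTC probe 1 are the panels in which every 42 µM array lies well clear of the DMSO arrays, while the fourth 28 µM array of both stays near the DMSO values.

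AREG, or amphiregulin, is a ligand of EGFR alone that is made by many epithelial cells. Its single probe (chr4:75320518-75320577, hg19, plus strand) read 8.59, 9.03, 8.40 and 8.69 in the 4 DMSO samples. At 28 µM it read 11.05, 11.40, 10.75 and 9.08. At 42 µM the values were 11.81, 11.89, 10.40 and 10.47. All 8 treated samples were thus above all DMSO samples, although the fourth 28 µM sample exceeded the highest DMSO sample by little. Group means were 8.68 ± 0.26, 10.57 ± 1.03 and 11.14 ± 0.82 for DMSO, 28 µM and 42 µM (SD, n = 4 each). At 42 µM the log2 fold change was 2.46 (SE 0.46, 95% interval 1.48 to 3.45, limma adjusted p = 0.0164). At 28 µM it was 1.89 (SE 0.46, 0.90 to 2.88, limma adjusted p = 0.186). Over the 24 alternatives tried, the limma adjusted p at 28 µM lay between 0.00481 and 0.608. The lowest came without the fourth array, where the change was 2.39. That array was singled out in part by this probe's own values, so the fit without it is a description and no test of AREG. The doses differed by 0.57 (95% interval -0.41 to 1.56, limma adjusted p = 1), and a larger effect of the higher dose was not shown. Each treated array was also set against the array of another group on its own slide. The 42 µM minus DMSO differences on the 3 slides that held both were 3.12, 3.49 and 1.38, and the 28 µM minus DMSO differences were 2.15, 2.36 and 0.68. For 42 µM minus 28 µM, by contrast, the 3 slides gave 0.76, -0.94 and 2.81, hence both signs. The call at 42 µM did not hold with slide as a block (log2 fold change 2.46, adjusted p = 0.0693), without DMSO replicate 1 (2.44, 0.0518), without DMSO replicate 2 (2.58, 0.0593) or without 42 µM replicate 2 (2.22, 0.0703). AREGB, once annotated as a copy of AREG, is a synonym of AREG in the current RefSeq table, and thus the same gene there. No probe of the array carries the name AREGB, so RNA annotated under either name is not told apart here.

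BTC, or betacellulin, binds EGFR and ERBB4. Its first probe (chr4:75675838-75675897, hg19, minus strand) was detected on 2 of 4 DMSO arrays and on all 8 treated arrays. It read 6.20, 6.30, 6.28 and 5.90 in DMSO. At 28 µM the values were 7.67, 7.77, 7.19 and 6.24. In the 42 µM samples it read 7.26, 7.70, 7.15 and 7.08. Here too the 42 µM samples were all above DMSO, whereas the fourth 28 µM sample fell inside the DMSO range. The means were 6.17 ± 0.18, 7.22 ± 0.70 and 7.30 ± 0.28 (SD, n = 4 each). At 42 µM the log2 fold change was 1.13 (SE 0.27, 95% interval 0.53 to 1.72, limma adjusted p = 0.0434). At 28 µM it was 1.05 (SE 0.27, limma adjusted p = 0.201), with limma adjusted p from 0.00282 to 0.614 over 24 alternatives. The lowest came without the fourth array, where the change was 1.37. As with AREG, that array was singled out in part by the values of this probe, so the fit without it is a description. Between doses the difference was 0.08 (95% interval -0.51 to 0.67). On shared slides, 42 µM exceeded DMSO by 1.36, 1.42 and 0.85, while 28 µM differed from DMSO by 0.99, 1.77 and -0.04. As the DMSO values lie near background, the size of the change depends on the background method, and on the scanner's own processed signal scaled to the 75th percentile it was 2.47 (limma adjusted p = 0.0404). The adjusted p lay between 0.00245 and 0.156 over the 24 alternatives, and the call held in 12 of them. It was lost with slide as a block (log2 fold change 1.08, adjusted p = 0.149) and with the normexp correction (0.99, 0.0503). The call was also lost when values with the main background correction were scaled to the 75th percentile (1.13, 0.0924). It was also lost when any DMSO array, any 42 µM array or 28 µM replicate 3 was left out, with log2 fold changes from 0.99 to 1.20 in those fits.

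A second BTC probe lies 4185 bases further towards the 3′ end and was too dim to test. It was detected on 1 array, the first of the 28 µM group, where it read 6.86, and the other 28 µM arrays read 6.02, 5.68 and 5.73. In DMSO it read 5.59, 5.45, 5.45 and 5.40, and at 42 µM it read 5.93, 5.89, 5.90 and 6.11. The treated arrays were all above the DMSO arrays, but 11 of the 12 readings were not well above background. No fold is given for this probe, since a single treated array detected it.

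EREG, or epiregulin, lies upstream of AREG on the same strand, and its product binds EGFR and ERBB4. Both of its probes were undetected on all DMSO arrays and on some arrays of each dose, so no fold is given for them. The fitted log2 differences below include readings near background. The first (chr4:75246853-75248419, hg19, plus strand) has 60 bases but spans 1567 in the genome, and so crosses a splice junction. It was detected on 2 of 4 arrays at each dose. Its means were 5.98 ± 0.10, 6.13 ± 0.06 and 6.18 ± 0.28 for DMSO and the lower and higher dose (SD, n = 4 each). The fitted differences from DMSO were 0.15 and 0.20 (limma adjusted p = 0.697 and 0.543). The second, 7156 bases further downstream, read 5.85 ± 0.15, 6.24 ± 0.65 and 6.14 ± 0.20 (SD, n = 4 each) and was detected on 1 array at 28 µM and 2 at 42 µM. The fitted differences from DMSO there were 0.39 at 28 µM and 0.28 at 42 µM (limma adjusted p = 0.588 and 0.682). The mean at 28 µM rests on replicate 1, which read 7.22, whereas the other 3 lay between 5.87 and 5.97. Neither probe was called in any of the alternatives tried. On the processed signal scaled to the 75th percentile, the fitted differences at 42 µM were larger, 1.18 and 1.19, with adjusted p of 0.279 and 0.531.

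HBEGF, the heparin-binding ligand of EGFR and ERBB4, had lower mean values in treated cells on both of its probes, but neither passed. Probe 1 (chr5:139713052-139713111, hg19, minus strand) read 8.24, 7.47, 7.83 and 7.80 in DMSO. At 28 µM it read 6.87, 7.20, 7.32 and 8.07. The values at 42 µM were 7.20, 7.35, 7.34 and 7.44. The 42 µM samples were all below the DMSO samples, and at 28 µM the same held for replicates 1 to 3, whereas the fourth lay within the DMSO range. The log2 fold change was -0.50 at 42 µM (SE 0.22, 95% interval -0.98 to -0.02, limma adjusted p = 0.292) and -0.47 at 28 µM (limma adjusted p = 0.456). Without the fourth 28 µM array the latter was -0.71 (limma adjusted p = 0.0527, with a range of 0.0527 to 0.742 over 24 alternatives). Probe 2, 2456 bases towards the 5′ end, gave -0.42 at 28 µM and -0.33 at 42 µM (limma adjusted p = 0.350 and 0.342), with overlapping groups. On shared slides, 42 µM minus DMSO was -0.60, -0.49 and -0.12 on probe 1 and 0.05, -0.36 and -0.28 on probe 2. For 28 µM minus DMSO the slides gave -0.93, -0.93 and 0.23 on probe 1 and -0.75, -0.40 and -0.13 on probe 2, so that each dose had a slide with a positive difference on one of the probes. The sign stayed negative for both probes and doses in all 24 alternatives, none of which gave a call.

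The remaining ligands were low. EGF, the founding member of the family, was detected on 4, 3 and 4 arrays of the DMSO, 28 µM and 42 µM groups (chr4:110932689-110932748, hg19, plus strand). Its means were 6.33 ± 0.18, 6.26 ± 0.36 and 6.37 ± 0.20 (SD, n = 4 each), and the log2 fold changes of -0.07 and 0.03 had 95% intervals of -0.44 to 0.30 and -0.34 to 0.41. TGFA, a ligand of EGFR, was not well above background on any of the 12 arrays, where its probe (chr2:70675319-70675378, hg19, minus strand) read between 5.48 and 5.97. No fold is given for it.

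**Figure D2:**
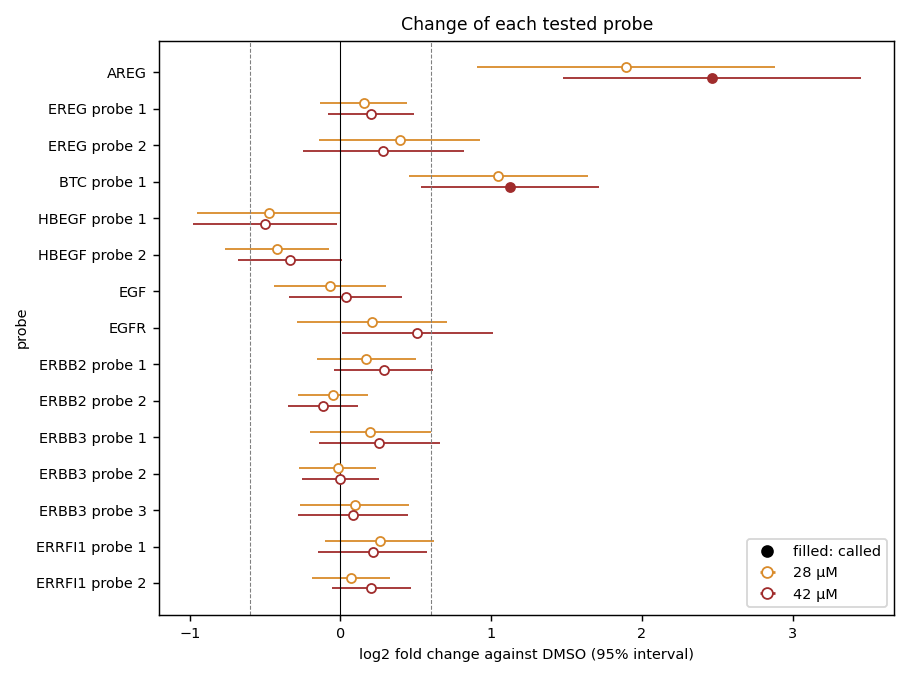
Log2 fold change against DMSO of the 15 tested probes (points, with 95% intervals as bars) at 28 µM and 42 µM, where filled points passed the call and dashed lines mark the fold limit of 0.6 in either direction. AREG (2.46) and BTC probe 1 (1.13) at 42 µM are the filled points, both HBEGF probes lie left of 0, and the intervals of EGF and most receptor probes span 0.

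EGFR, the receptor of all 6 ligands, is represented by 1 probe in 10 spots (chr7:55274841-55274900, hg19, plus strand). In DMSO it read 8.51, 8.86, 8.25 and 8.78. At 28 µM the values were 9.20, 9.29, 8.55 and 8.20, and at 42 µM they were 9.46, 8.91, 9.04 and 9.03. The 42 µM samples were all above the DMSO samples, but by little, and the 28 µM samples were spread on both sides. The log2 fold change was 0.51 at 42 µM (SE 0.23, 95% interval 0.01 to 1.01, limma adjusted p = 0.312) and 0.21 at 28 µM (95% interval -0.29 to 0.71, limma adjusted p = 0.765). It was positive and not called in all 24 alternatives at each dose.

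ERBB2, the partner receptor without a ligand of its own, had 3 probes that gave different readings. The brightest, in 10 spots (chr17:37884829-37884888, hg19, plus strand), had means of 9.99 ± 0.18, 10.16 ± 0.26 and 10.28 ± 0.20 (SD, n = 4 each). Its lowest 42 µM sample, at 10.15, lay just above the highest DMSO sample, at 10.12. The log2 fold change at 42 µM was 0.29 (95% interval -0.04 to 0.62, limma adjusted p = 0.409), and at 28 µM it was 0.17 (limma adjusted p = 0.703). A probe 18179 bases towards the 5′ end gave -0.12 and -0.05 (limma adjusted p = 0.713 and 0.891), and one 10989 bases towards the 5′ end was undetected on all 12 arrays.

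ERBB3, the receptor with weak kinase activity, was measured by 3 probes, of which the brightest (chr12:56496160-56496219, hg19, plus strand) read 10.98 ± 0.25, 11.18 ± 0.28 and 11.24 ± 0.32 (SD, n = 4 each). The changes were 0.20 at 28 µM and 0.26 at 42 µM (95% interval -0.14 to 0.66, limma adjusted p = 0.586). Of the other two, one lies 13447 and one 8530 bases towards the 5′ end, and both were designed on other transcript records. They changed by -0.02 and 0.09 at 28 µM and by -0.00 and 0.08 at 42 µM, with overlapping groups throughout. The upper ends of the 42 µM intervals of the 5 tested ERBB2 and ERBB3 probes were at most 0.66, and that of the EGFR probe was 1.01. No test compared the change of one probe with that of another.

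ERRFI1, also called MIG6, is induced by receptor signalling and in turn blocks the kinase domain of the receptors. Probe 1 (chr1:8072208-8072267, hg19, minus strand) read 12.62 ± 0.21, 12.88 ± 0.26 and 12.83 ± 0.27 (SD, n = 4 each), and probe 2 read 8.75 ± 0.15, 8.82 ± 0.17 and 8.95 ± 0.11 (SD, n = 4 each). At 42 µM both changed by 0.21, with 95% intervals of -0.15 to 0.57 and -0.06 to 0.47 (limma adjusted p = 0.635 and 0.478). Neither probe of the inhibitor was called, and whether receptor signalling changed was not tested.

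Counting by overlap alone, at 42 µM 4 of the 15 probes (AREG, BTC, EGFR and ERBB2, 1 probe each) had all treated samples above all DMSO samples, and 1 (HBEGF) had all below. Over all tested probes these shares were 5.83% and 6.49%. At 28 µM, AREG was the only one of the 15 probes without overlap, with shares over all probes of 2.69% above and 2.68% below. Between the doses all 15 overlapped, against shares of 0.63% above and 0.852% below.

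For the rest of the ERBB network, 5 lists of genes were examined, each gene by its brightest tested probe. Their counts at 42 µM stand against 1.41% of all tested probes called higher and 1.23% called lower. The remaining family members, with 5 of 7 genes tested, had 0 called at 42 µM (median log2 fold change -0.03). NRG1, a neuregulin that binds ERBB3 and ERBB4, had a change of 0.44 (limma adjusted p = 0.0604), with all 42 µM samples above DMSO. NRG4, a ligand of ERBB4, had -0.54 (limma adjusted p = 0.167), with all 42 µM samples below DMSO. EPGN, or epigen, was below background on all arrays. The 11 shedding genes, the ADAM proteases and their regulators, had 0 called and a median of 0.01. ADAM17, the main sheddase of AREG, changed by 0.25 (limma adjusted p = 0.448). With 5 and 11 genes tested and shares this low over all probes, counts of 0 say little about either list.

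Among 23 tested genes of receptor turnover and feedback, 1 was called higher and 1 lower at 42 µM, with a median of -0.02. They code for related MAP kinase phosphatases. DUSP4, which acts on nuclear ERK, JNK and p38, had a log2 fold change of 0.62 (SE 0.15, limma adjusted p = 0.0436). DUSP6, which acts on cytoplasmic ERK, had -0.65 (SE 0.16, limma adjusted p = 0.0437). In the list of 31 adaptors and kinases, 1 was called higher and 0 lower, with a median of 0.10. This was GAB2, a docking protein, at 0.60 (SE 0.13, limma adjusted p = 0.0306), whereas its dimmer second probe gave -0.03 (limma adjusted p = 0.962).

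The list of 20 genes that growth factors are known to induce had 19 tested, with 4 called higher and 1 lower at 42 µM, and a median of -0.04. PHLDA1, a pleckstrin-homology protein induced by many mitogens, had 1.32 (SE 0.25, limma adjusted p = 0.0164), and its other 3 probes gave 0.92 to 1.17, of which 1 was called. MYC, the transcription factor, had 1.20 (SE 0.24, limma adjusted p = 0.0216) on its brightest probe, but -0.19 and 0.13 on 2 dimmer ones. VEGFA, the angiogenic growth factor, had 1.18 (SE 0.23, limma adjusted p = 0.0184) and 0.48 on each of 2 further probes, neither of which was called. IER3, an early response gene, was the gene called lower, with -0.74 (SE 0.17, limma adjusted p = 0.0365). JUN, a subunit of AP-1 that is named after its value was seen, had 0.66 (SE 0.16, limma adjusted p = 0.0418), but -0.53 (limma adjusted p = 0.793) in the deposited normalized table. Its probe is printed in 10 spots, and the cause of that change of sign was not tested. At 28 µM 0 genes were called in any of the 5 lists. Without the fourth 28 µM array the growth-factor list had 4 called higher (the same 4 as at 42 µM) and 2 lower (EGR1 and IER3). The shares over all tested probes in that fit were 1.31% and 0.84%, and the other lists had 0 called. That array was singled out by its AREG and BTC values, and both doses were compared with the same DMSO arrays.

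**Figure D3:**
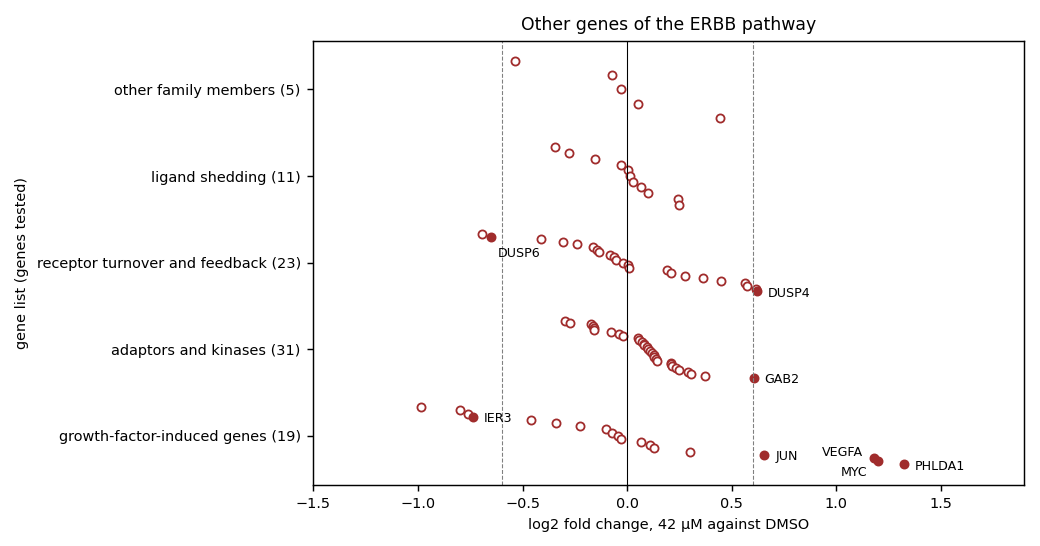
Log2 fold change at 42 µM against DMSO of the tested genes of 5 lists of the ERBB network, 1 point per gene on its brightest tested probe, with filled and named points for called genes and dashed lines at the fold limit of 0.6. Most points lie between the dashed lines, and the largest called changes belong to PHLDA1, MYC and VEGFA of the growth-factor-induced list.

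These 8 calls were sensitive to single arrays. With DMSO replicate 2 or 42 µM replicate 2 left out, no probe of any gene was called at 42 µM, and with slide as a block 1 probe was, which belongs to none of the 8 genes. Of 22 alternatives, PHLDA1 was called in 18, VEGFA in 16, MYC in 15, DUSP6 and IER3 in 11 each, GAB2 in 10, DUSP4 in 9 and JUN in 8.

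AREG, EREG and BTC lie in one stretch of chromosome 4, and the 34 probes (26 gene names) within 1000000 bases of the AREG probe were therefore read together. Of these 23 were tested. At 42 µM 2 were called higher (1.41% of all tested probes), AREG and BTC, and 1 lower (1.23%), namely CXCL1, a chemokine that attracts neutrophils (-1.42, limma adjusted p = 0.0345), whose probe lies 583668 bases upstream of the AREG probe. The stretch was centred on AREG, and AREG and BTC are the members already called above, so the count of higher probes is no test of the stretch. The 2 EREG probes, 72912 and 66509 bases upstream, and the EPGN probe, 141736 bases upstream, lie closer to AREG than BTC does, whose called probe is 355320 bases downstream. The EPGN probe was too dim to test, and the EREG probes, which were undetected in DMSO, were tested and not called. In all, 9 of the 34, the EPGN probe among them, were not detected on any array.

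**Figure D4:**
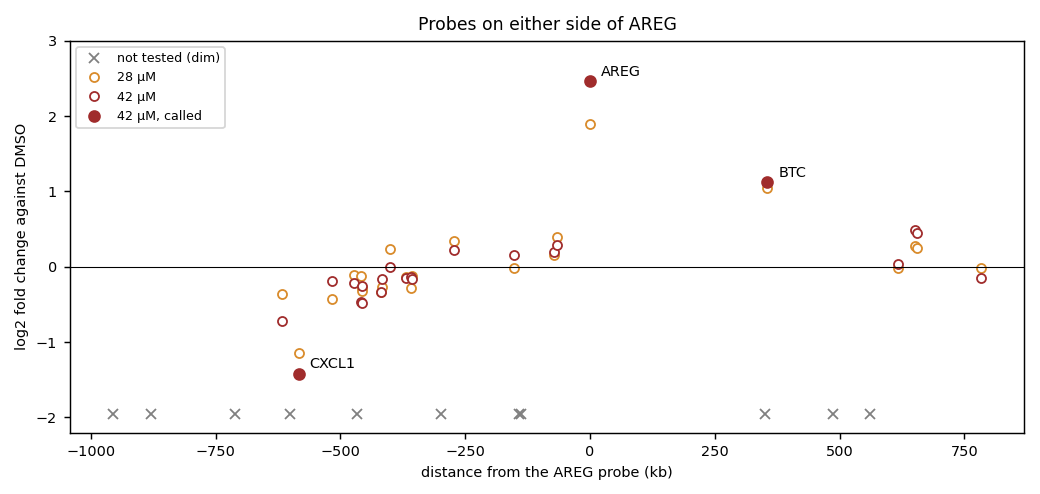
Log2 fold change against DMSO at 28 µM and 42 µM of the tested probes within 1000000 bases of the AREG probe, by distance from it in kb, with crosses for probes that were too dim to test. AREG and BTC are called higher and CXCL1 lower at 42 µM, while the EREG probes just left of AREG, which were undetected in DMSO, and the other tested probes between these genes were not called.

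The 5 genes whose profile over the 12 arrays, centred on the DMSO mean, was nearest to that of AREG were NUPR1, RCN1, ALDH1L2, DDIT4 and TRIB3. Their root mean square differences from AREG were 0.25, 0.33, 0.33, 0.34 and 0.36 on the log2 scale, against a median of 1.94 over all tested probes. Profiles were not scaled, so a probe that stays at its DMSO mean differs from AREG by the size of AREG's own change. The median therefore does not gauge how unusual the likeness is. NUPR1 codes for a small stress-induced nuclear protein, RCN1 for a calcium-binding protein of the endoplasmic reticulum, ALDH1L2 for a mitochondrial folate enzyme, DDIT4 for an inhibitor of mTORC1 and TRIB3 for a pseudokinase. In all of them, as in AREG, the fourth 28 µM array was the lowest of the treated arrays. NUPR1 read 9.73, 9.66, 9.21 and 6.96 at 28 µM, with DMSO values between 6.84 and 7.21. ALDH1L2 was undetected on the DMSO arrays, so its profile there is set by background. These genes were picked for their likeness, which is a description of 12 arrays and carries no test.

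**Figure D5:**
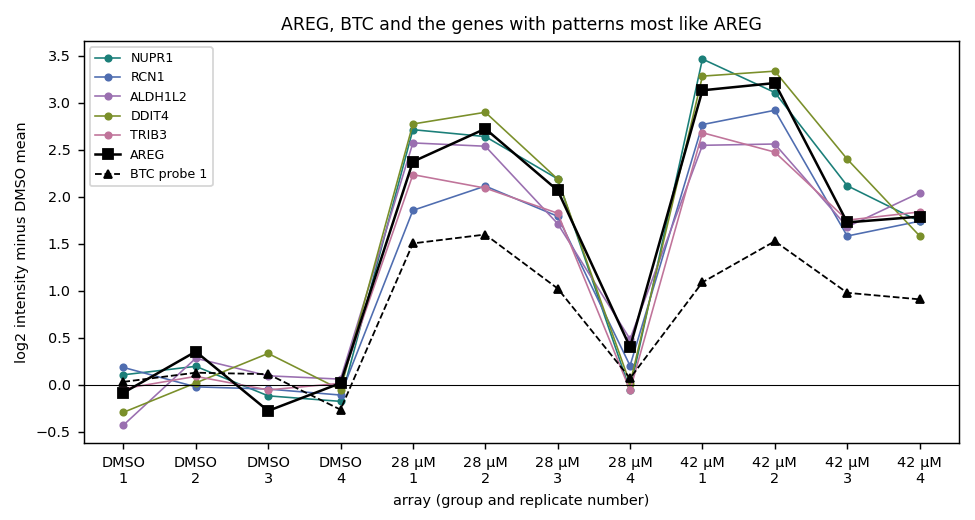
Log2 intensity minus the DMSO mean on each of the 12 arrays for AREG (squares), BTC probe 1 (triangles, dashed) and the 5 genes with the profiles most like that of AREG. All the curves are high on 28 µM replicates 1 to 3 and on the 4 arrays of 42 µM, with 42 µM replicates 1 and 2 above 3 and 4 for AREG, and in each of them 28 µM replicate 4 is the lowest treated array.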

How the data were processed

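RNA of HuH-7 cells was hybridised to Agilent 1-colour arrays. The authors deposited, for each array, the intensity of every spot and of its local background with flags for detection and outliers, made with Agilent Feature Extraction 10.7.3.1 per the submitters' processing notes, with probe positions on hg19. A second deposited file holds log2 values after the authors' background correction and quantile normalization. Here, control spots and outlier spots were left out, mean intensities were corrected by the Edwards method, quantile normalized and turned to log2, and spots of a probe were averaged. A probe stayed in if at least 2 arrays of one group detected it, as the methods drop probes flagged on most arrays of every condition. This left 33467 of 41000 probes. limma 3.58.1 (R 4.3.3) was fitted to all 12 arrays, two-sided, with Benjamini-Hochberg adjustment. The number of arrays limits the precision. The fold limit of 0.6 on the log2 scale is that of the study's results, whereas its methods name a 2-fold limit. The fit was tested on simulated data.

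Alternatives were other background corrections and scalings, the deposited log2 table, other filters and fold limits, slide or replicate number as a block, fits of only the compared groups, and leaving out each array. Members and gene lists (family, shedding, turnover, adaptors, induced genes, cell type markers) were chosen with earlier results of these data known. Every member probe is named. From the lists, called genes were named, at most the 4 of largest change, and NRG1, NRG4, EPGN, ADAM17, JUN and EGR1 besides, after their values were seen. Of 41000 probes, 68.5% were named by their RefSeq accession, and the rest kept the name of the array design. Without an hg19 annotation the exon or UTR of a probe was not determined. Fibroblast, leukocyte and endothelial markers had 0 called at either dose, and COL1A2 and THY1 read 10.1 and 9.57 in DMSO. Motifs were searched with Python 3.11.15 on RefSeq sequences of GRCh38.p14.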

Additional observations from a re-analysis of the deposited data

Results flagged for a closer look

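In 5 of the 45 groups of 4 arrays examined (15 probes in 3 groups), 1 array lay far from the other 3 for a probe, with a gap to its nearest neighbour that passed Dixon's critical share of the whole range. Chance flags about 1 in 20 such groups. EREG probe 2 read 7.22 on 28 µM replicate 1, against 5.87 to 5.97 on the other 28 µM arrays, and 6.43 on 42 µM replicate 1, against 6.03 to 6.06. On ERBB2 probe 2, DMSO replicate 1 read 6.71, against 6.61 to 6.62. ERBB3 probe 3 read 7.78 on DMSO replicate 3, against 7.21 to 7.29. ERRFI1 probe 2 read 8.79 on 42 µM replicate 2, against 8.99 to 9.02. No AREG, BTC, HBEGF, EGF or EGFR group was among the 5.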

How the results depend on the processing

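At 42 µM against DMSO, where 2 member probes were called, the count was 1 with the normexp background correction (BTC at 0.99, adjusted p = 0.0503) and 1 with the Edwards correction scaled to the 75th percentile (BTC at 1.13, adjusted p = 0.0924). It was 0 with slide as a block, where 1 probe of all was called. Leaving out 1 array at a time gave 0 to 2 calls at 42 µM, 0 to 2 at 28 µM, where the 2 came without 28 µM replicate 4, and 0 in each fit between the doses. In the fits with no call at 42 µM (without DMSO replicate 1 or 2 or 42 µM replicate 2), the AREG change was 2.22 to 2.58. With the replicate block the counts were 0, 2 and 0, and over all probes at 42 µM 1366 were called in place of 885. Samples with the same number correlated between -0.46 and 0.62 in their deviations (7 of 12 pairs over 0.1). The 9 pairs of samples on the same slide gave -0.23 to 0.62. These ranges do not settle whether the numbers pair the samples. Over all probes at 42 µM, the count was 442 with quantile normalization of the processed signal and 366 with a log2 limit of 1. Of the fold changes of the 15 tested member probes recomputed, 1056 stayed on their side of the call, 16 lost it and 2 gained it, and no called value of a member changed sign. The cause of the lost calls was not tested, and fits without an array hold fewer samples. EREG, TGFA, BTC probe 2 and ERBB2 probe 3 are limited by signal near background.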
